A study of Arabidopsis thaliana with 18 samples.

Results

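Leaves of 35S:RPS4-HS (35S:RPS4 below), a transgenic Arabidopsis line in the Col-0 background that over-expresses the resistance gene RPS4 from the constitutive 35S promoter, were compared with leaves of Col-0 wild-type while both lines were still at 28 °C. The 6 libraries were chosen by line and time point from the 18 of the series, 3 per line, and were collected at 0 h, that is, from 3.5-week-old plants raised at 28 °C and never shifted to 19 °C. The other libraries came from the same 2 lines 4 h and 8 h after that shift. The comparison asks how far the transcriptomes of the lines differed under the temperature at which the over-expressed receptor is held inactive. The 35S promoter is active in most leaf cells, the transgenic line is named as 1 line, and reads of the transgene and of the endogenous RPS4 gene were counted together. Whether the 3 libraries of a line were taken from separate plants is not in the labels. The p-values below therefore reflect only the variation between libraries, estimated over all 18 of the series, which may in part be technical.

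RPS4 is an intracellular immune receptor of the nucleotide-binding leucine-rich repeat (NLR) class with an amino-terminal TIR domain, and it recognises bacterial effectors together with its partner RRS1. Receptors with a TIR domain signal through EDS1, which forms complexes with PAD4 or SAG101 and acts with helper NLRs to raise salicylic acid and to reprogramme defence transcription. Warm temperatures are known to hold back many NLR responses, and a shift to a cooler temperature releases them in plants that carry too much receptor.

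The 6 libraries held between 23907787 and 31465989 counts in genes, so that 3 counts were equal to 0.0952 to 0.124 CPM (counts scaled to the normalised size of each library), a floor that covers counting error only. Of 32678 genes, 20023 had enough counts to be tested. Libraries did not separate by line over all genes. On the first principal component, which took 36.7% of the variance, the 35S:RPS4 libraries lay at -20.9, -30.3 and -22.1 and Col-0 replicate 1 lay among them at -26.5, whereas Col-0 replicates 3 and 2 stood apart at 26.4 and 73.4. The median SD of a gene between libraries (log2 CPM) was 0.263 in Col-0 and 0.233 in 35S:RPS4, and 1302 genes had an SD above 1 in Col-0 against 685 in 35S:RPS4. Results that rest on Col-0 replicates 2 and 3 are therefore given with and without replicate 1 below.

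Beside RPS4 itself, a single locus passed the test at 28 °C, AT5G24240, annotated as a phosphatidylinositol 4-kinase gamma-like protein. Its upstream sequence is shown because this gene was the only other call of the main test. The 250 bases before its annotated start (RefSeq annotation, build TAIR10.1, chr5:8234151-8234400, minus strand) read as follows, with the W-box core TTGAC, or its reverse complement GTCAA, in capitals.
AT5G24240: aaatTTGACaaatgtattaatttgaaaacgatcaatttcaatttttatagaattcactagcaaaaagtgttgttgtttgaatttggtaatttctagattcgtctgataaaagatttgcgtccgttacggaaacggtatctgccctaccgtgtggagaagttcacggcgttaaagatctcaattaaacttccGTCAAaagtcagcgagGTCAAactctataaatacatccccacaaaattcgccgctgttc
The W-box is the element that WRKY transcription factors bind. The core occurred 3 times, with its first base 246 bases upstream of the start on the gene's strand and 59 and 43 bases upstream on the opposite strand. At least 1 core was present in 44.9% of the same windows over all tested genes, and at least 3 in 691 genes (3.48%). The other elements searched on both strands, CCGAC (CRT/DRE core), CACGTG (G-box) and CGCG (CAMTA core), were not in this window, and 13.1%, 7.37% and 11% of all windows held them. The other form of the CAMTA core, CGTG, which is not in capitals, began 103 bases upstream on the gene's strand and 89 bases upstream on the opposite strand, and 46.1% of all windows held it.

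RPS4 transcripts (AT5G45250, chr5:18321764-18326175, minus strand, 5 exons) were counted at 12.7, 13.2 and 12.2 CPM in the Col-0 libraries and at 995, 954 and 772 CPM in the 35S:RPS4 libraries. Every 35S:RPS4 library was far above every Col-0 library, as labelled. The means were 12.7 ± 0.486 and 907 ± 119 CPM (SD, n = 3), and the fitted difference was 71.3-fold (log2FC 6.16 ± 0.19, SE, 95% interval 5.76 to 6.55, adjusted p = 4.34e-12 by edgeR's quasi-likelihood test with Benjamini-Hochberg adjustment). Relative to exon length, RPS4 stood at rank 13107 of the tested genes in Col-0 (3.21 CPM per kb) and at rank 364 in 35S:RPS4 (229 CPM per kb). RPS4 over-expression was therefore in place before the shift. After the shift, RPS4 was at 2046, 1893 and 2604 CPM at 4 h and at 718, 665 and 781 CPM at 8 h in 35S:RPS4, and between 12.2 and 20.1 CPM in all 9 Col-0 libraries.

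AT5G24240 (chr5:8230916-8234150, minus strand, 3 exons) was close to the floor in Col-0, with 4, 8 and 4 counts or 0.139, 0.266 and 0.147 CPM. In 35S:RPS4 it had 646, 488 and 621 counts, or 20.5, 20.1 and 22.9 CPM. The 3 libraries of each line were close to each other and the lines did not overlap. The means were 0.184 ± 0.0711 and 21.2 ± 1.49 CPM (SD, n = 3), and the fitted difference was 111-fold (log2FC 6.80 ± 0.53, SE, 95% interval 5.69 to 7.91, adjusted p = 4.71e-06 by edgeR). With limma voom the adjusted p of this gene was 0.0556 at a log2FC of 6.76, and RPS4 was then the only gene called. Per kb of exon it moved from rank 19254 in Col-0 to rank 8537 in 35S:RPS4, so its level at 28 °C was moderate. It was higher still in 35S:RPS4 after the shift, at 71.0, 126 and 163 CPM at 4 h and 275, 122 and 214 CPM at 8 h, while all 9 Col-0 libraries lay between 0.0651 and 0.625 CPM. The increase of its line effect between 28 °C and 4 h (log2 3.22 ± 1.03, SE, edgeR adjusted p = 0.0178) did not pass the threshold of 0.01.

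The other kinases of this family did not pass the test at 28 °C. Phosphatidylinositol 4-kinases phosphorylate the lipid phosphatidylinositol, and the gamma-type proteins resemble them in sequence. Of 8 members listed, 7 were tested, and the 6 other than AT5G24240 had log2FC from -0.41 to 0.23. Only 4 of the 7 intervals lay within 2-fold. In 2 of the 7, AT5G24240 included, every 35S:RPS4 library was above every Col-0 library, against 6.84% of all genes tested. PI4KG7 was at 73.2, 77.2 and 73.1 CPM in Col-0 and at 89.9, 92.6 and 73.2 CPM in 35S:RPS4. PI4KG4 was at 62.4 to 75.0 against 63.4 to 73.5 CPM, so both were near equal in the lines.

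**Figure D1:**
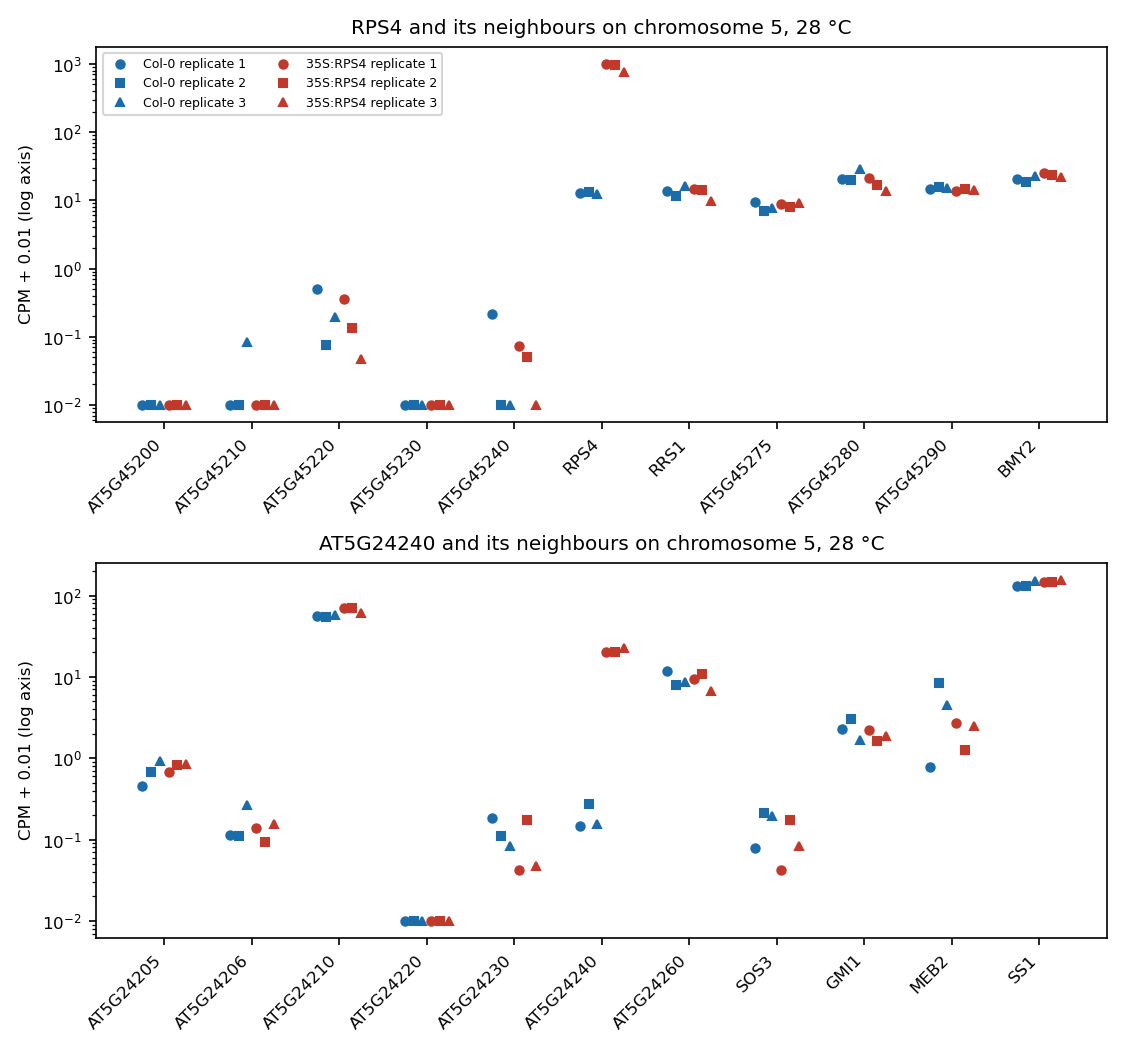
CPM plus 0.01 (log axis) of RPS4 (upper panel) and AT5G24240 (lower panel) with the 5 genes on each side on chromosome 5, in each library at 28 °C (blue, Col-0, red, 35S:RPS4, the symbol shape gives the replicate). RPS4 (12.2 to 13.2 against 772 to 995 CPM) and AT5G24240 (0.139 to 0.266 against 20.1 to 22.9 CPM) are widely separated between the lines, whereas RRS1 and most other tested neighbours overlap and AT5G24210 and AT5G45290 differ by little.

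Genes next to the 2 called loci showed no such difference. RPS4 and RRS1 are transcribed away from each other, and the annotation leaves only 27 bases between their starts (chr5:18326176-18326202, TAIR10.1, given on the plus strand), shown here because the pair shares this stretch as its upstream region.
RPS4-RRS1 gap: tgagatttgagtggttgaatgtccaat
RRS1, the partner receptor of RPS4, was at 13.7, 11.6 and 16.0 CPM in Col-0 and at 14.7, 14.3 and 9.79 CPM in 35S:RPS4. The lines overlapped, and its log2FC was -0.09 with a 95% interval of -0.66 to 0.48. Of the 10 nearest genes around RPS4, 6 were tested and 0 were called by edgeR, with log2FC from -0.47 to 0.18. Around AT5G24240, 9 of 10 were tested and 0 were called, with log2FC from -1.09 to 0.26. The 3′ end of AT5G24240 overlaps AT5G24230 on the other strand, which had means of 0.116 CPM (Col-0) and 0.0778 CPM (35S:RPS4).

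Over the whole transcriptome, edgeR called 2 of 20023 genes higher in 35S:RPS4 (0.00999%) and 0 lower (0%), with 0.01 as the limit of the adjusted p and more than 2-fold as that of the difference. At an unadjusted p under 0.05, 725 of the 20023 genes were higher and 1198 lower. Counts at this p in the lists below are to be read beside these. DESeq2, run on the same libraries, called 4 genes higher (0.0200%) and 71 lower (0.355%) and gave 2091 genes an unadjusted p under 0.05, with the adjusted p not estimated for 1956 genes. limma voom called 1 gene higher and 0 lower. The median log2FC of all tested genes was 0.00, and the 95% interval of the log2FC lay within 2-fold either way for 13812 genes (69.0%). The median half-width of that interval was 0.46 on the log2 scale. For the other genes a 2-fold difference was not excluded with this number of libraries. The 3 libraries of the lines did not overlap in 1370 genes that were higher in 35S:RPS4 (6.84%) and 878 that were lower (4.38%). By the same edgeR test the lines differed in 3315 genes that were higher (16.6%) and 2490 that were lower (12.4%) at 4 h. As in any bulk sample, fewer cells of a type and less RNA per cell cannot be told apart.

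**Figure D2:**
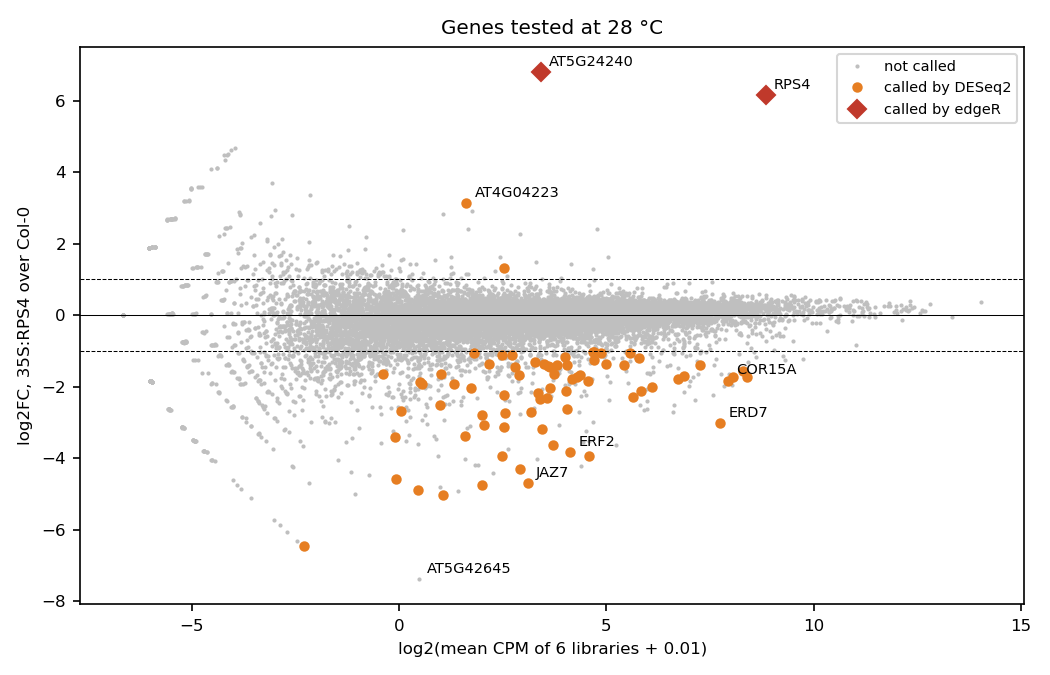
Log2FC of 35S:RPS4 over Col-0 at 28 °C (y axis) against the log2 of the mean CPM of the 6 libraries plus 0.01 (x axis) for the 20023 genes tested. Red diamonds are the 2 genes called by edgeR, RPS4 (6.16) and AT5G24240 (6.80), orange points those called by DESeq2 alone (71 of them lower), and dashed lines mark a 2-fold difference.

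Genes of the EDS1 pathway, through which RPS4 signals, were expressed at similar levels in both lines. EDS1 was at 12.5, 13.0 and 11.1 CPM in Col-0 and 10.9, 8.82 and 14.5 CPM in 35S:RPS4 (log2FC -0.10, 95% interval -0.43 to 0.23). Reads of EDS1 may in part be lost to its near-identical neighbour AT3G48080, which was below 0.51 CPM in every library. PAD4, the partner of EDS1 in basal resistance, was at 21.6, 23.3 and 22.8 CPM in Col-0 and 29.1, 32.3 and 28.5 CPM in 35S:RPS4. PAD4 was higher in each 35S:RPS4 library, but its log2FC of 0.41 (95% interval 0.12 to 0.69) did not pass the test (edgeR adjusted p = 0.349, DESeq2 0.151). Over the 9 genes of the list, which included SAG101 and helper NLRs such as AT5G66900, the median log2FC was -0.10 and 8 intervals lay within 2-fold. The median was 0.25 without Col-0 replicate 1 and -0.13 when Col-0 was replicate 1 alone. In 2 of the 9 the lines did not overlap, with 35S:RPS4 higher, against 6.84% of all genes tested. By edgeR, 0 of the 9 were called and 1 had an unadjusted p under 0.05, and DESeq2 called 0. At 4 h the median of the same genes was 4.38.

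Among other receptors and the chaperones that hold them ready edgeR made no further call. Of 21 sensor NLRs and RPS4 partners only RPS4 was called, 1 other was lower at an unadjusted p under 0.05, the median log2FC was -0.09 and 18 intervals lay within 2-fold. SNC1, a TIR-type receptor whose over-accumulation causes autoimmunity, was at 213, 169.95 and 176 CPM in Col-0 and at 239, 231 and 150.2 CPM in 35S:RPS4. RPS4B and RRS1B, a second receptor pair of the same kind, had log2FC of 0.00 and -0.10. All 6 NLR chaperones had intervals within 2-fold, and the largest of their log2FC was that of SGT1B (0.17), which works with HSP90 in receptor assembly. In this list edgeR and DESeq2 called 0 genes, and 0 had an unadjusted p under 0.05. Genes of RNA silencing, which can act on transgenes, had a median log2FC of -0.10 over 11 genes, 10 of them with an interval within 2-fold and 0 with an unadjusted p under 0.05. AGO1, the main effector of small RNAs, was at 125, 83.3 and 102 CPM in Col-0 and at 118, 89.3 and 95.0025 CPM in 35S:RPS4.

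Genes that make salicylic acid, a main output of EDS1, were not called at 28 °C. ICS1, which makes the precursor of salicylic acid, was at 5.28, 3.82 and 6.28 CPM in Col-0 and 8.22, 7.09 and 7.73 CPM in 35S:RPS4. These libraries did not overlap, and the log2FC of 0.59 (95% interval 0.20 to 0.98) did not pass the test (edgeR adjusted p = 0.317, DESeq2 0.146). Its activators CBP60G and SARD1 were low, at 1.25 to 1.43 against 1.44 to 2.098 CPM and at 1.296 to 2.15 against 1.32 to 1.46 CPM. EDS5, which exports the precursor from chloroplasts, overlapped between the lines (11.4 to 20.3 against 16.4 to 18.8 CPM). Of the 10 genes of salicylic acid and N-hydroxypipecolic acid synthesis edgeR and DESeq2 called 0, 1 had an unadjusted p under 0.05, and 6 intervals lay within 2-fold. Their median log2FC was 0.12, against 7.19 at 4 h. At 28 °C the lines did not overlap in 2 of the 10, with 35S:RPS4 higher, against 6.84% of all genes tested.

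Genes that respond to salicylic acid were also not called, though only 7 of 17 intervals lay within 2-fold. PR1, the usual marker of this response, was at 0.104, 0.133 and 0.220 CPM in Col-0 and at 0.0635, 0.453 and 0.1104 CPM in 35S:RPS4, that is, at or near the floor. The receptor NPR1 was at 31.2 to 35.2 against 26.7 to 32.7 CPM. The smallest p among the 17 genes tested was that of BSMT1, which methylates salicylic acid, with 3.02, 41.0 and 34.3 CPM in Col-0 and 7.05, 0.659 and 1.36 CPM in 35S:RPS4. Col-0 replicate 1 lay inside the 35S:RPS4 range for this gene (log2FC -3.08, edgeR adjusted p = 0.243). Over the list the median log2FC was -0.06, with 0 calls by edgeR or DESeq2 and 3 genes at an unadjusted p under 0.05, of which 1 was higher.

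Pattern-triggered immunity and WRKY genes held 0 edgeR calls, and those with the smallest p were highest in Col-0 replicate 2 or 3. RBOHD, the oxidase of the immune oxidative burst, was at 46.0, 50.5 and 59.9 CPM in Col-0 and 44.5, 38.0 and 39.8 CPM in 35S:RPS4 (log2FC -0.35, edgeR adjusted p = 0.501). FLS2, the flagellin receptor, was at 3.61, 9.24 and 1.87 CPM in Col-0 and at 2.86, 1.77 and 2.21 CPM in 35S:RPS4, with only Col-0 replicate 2 well above the rest. MKK4, an immune MAP kinase kinase, was close in the lines at 12.9 to 13.1 against 11.2 to 13.7 CPM. Of 23 genes of this list 6 had an unadjusted p under 0.05, all lower, DESeq2 called 0 and 11 intervals lay within 2-fold. WRKY18, a repressor of early defence genes, was at 5.17, 52.7 and 22.6 CPM in Col-0 and at 6.70, 4.12 and 11.1 CPM in 35S:RPS4. Its Col-0 replicate 1 lay within the 35S:RPS4 range, and it was called lower only when that library was left out (adjusted p = 0.00305 against 0.257 with it, both by edgeR). WRKY33, a regulator of camalexin synthesis, was at 4.15 to 5.85 against 3.31 to 5.27 CPM. The 20 WRKY genes had a median log2FC of -0.50, 3 of them at an unadjusted p under 0.05 and 0 called by DESeq2, and only 2 intervals lay within 2-fold. The direction of this list turned with the library, from a median of -0.35 without Col-0 replicate 1 to 0.28 when Col-0 was replicate 1 alone.

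CAMTA transcription factors, which bind calmodulin and are known as regulators of immunity and cold genes, differed by less than 2-fold between the lines. CAMTA3 was at 31.2, 25.3 and 30.7 CPM in Col-0 and at 34.0, 28.2 and 26.7 CPM in 35S:RPS4 (log2FC 0.03, 95% interval -0.32 to 0.39). All 6 CAMTA genes had intervals within 2-fold and 0 had an unadjusted p under 0.05. Among 22 genes of calcium signalling edgeR called 0, DESeq2 called 1 lower and 5 had an unadjusted p under 0.05, all lower, and 12 intervals lay within 2-fold. Their median log2FC was -0.24, and 0.01 when Col-0 was replicate 1 alone. The DESeq2 call was AT1G76640, a calmodulin-like gene with 0.139, 0.299 and 0.734 CPM in Col-0 and 0 counts in all 35S:RPS4 libraries. Of the 8 genes the study followed by RT-qPCR, edgeR and DESeq2 called 0 at 28 °C, and 1, TAT3, had an unadjusted p under 0.05. TAT3, a tyrosine aminotransferase induced by jasmonate, was at 14.5, 327 and 169 CPM in Col-0 and at 45.3, 20.5 and 12.7 CPM in 35S:RPS4. Without Col-0 replicate 1 it was called lower (edgeR adjusted p = 0.00637), and the median log2FC of the 8 genes ran from -0.85 without that library to 0.73 with it alone.

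Genes called at 4 h, between other libraries than those at 28 °C though in the same fit, were examined for what they showed before the shift. Of the 3315 genes higher in 35S:RPS4 at 4 h, 2 were called at 28 °C, RPS4 and AT5G24240. The other 3313 had a median log2FC of -0.16 at 28 °C, and 32.3% of them were above 0, so they lay below rather than above the 14218 genes not called at 4 h, whose median was 0.02. That displacement was not seen with every Col-0 library. The median was -0.20 without Col-0 replicate 1 and 0.05 when replicate 1 was the only Col-0 library. The 100 genes with the largest rises at 4 h had a median of 0.02 and 50% of them were above 0. Only 2% of their intervals lay within 2-fold, so their level at 28 °C was poorly determined. Their median was 0.72 when replicate 1 was the only Col-0 library. For the 2490 genes lower at 4 h the median at 28 °C was 0.06, and 57.5% were above 0. Genes higher at 4 h were imprecise at 28 °C, since 52.1% of their intervals lay within 2-fold against 73.2% of the genes not called.

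**Figure D3:**
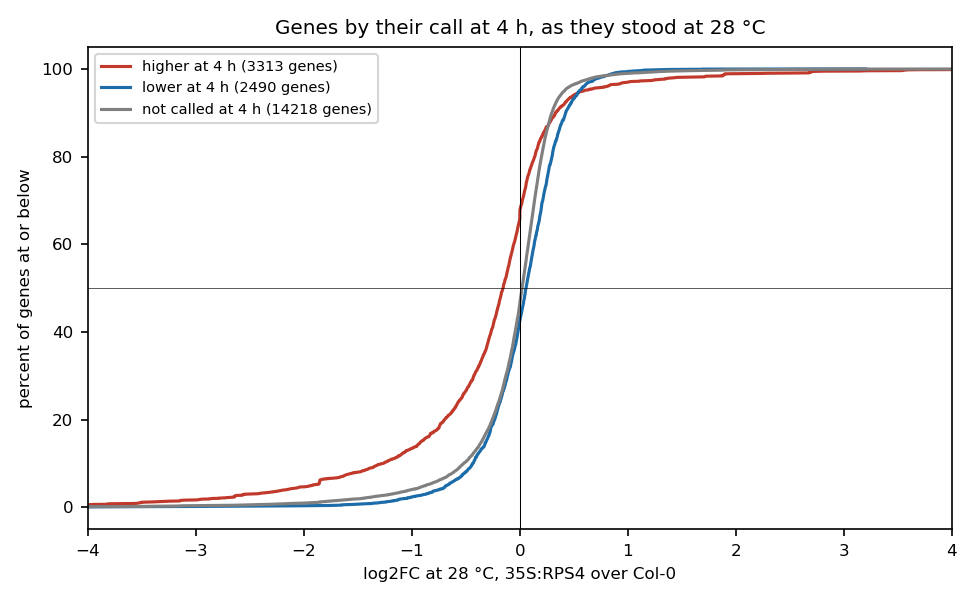
Cumulative percent of genes (y axis) by their log2FC of 35S:RPS4 over Col-0 at 28 °C (x axis, values beyond 4 either way not shown), for genes called higher (3313), lower (2490) or not called (14218) at 4 h. The curve of the genes higher at 4 h lies to the left, with a median of -0.16, and the other curves cross the median line at 0.06 and 0.02.

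Jasmonate genes had the most negative median log2FC of the lists, and many of them were high in Col-0 replicates 2 and 3 and low in the other 4 libraries. Jasmonate is made in chloroplasts and peroxisomes from membrane lipids, is active as its isoleucine conjugate, and acts by removing the JAZ repressors, whose own genes are induced in feedback. Among the genes of synthesis, AOS was at 291, 1730.45 and 1559.92 CPM in Col-0 and at 609, 222 and 705 CPM in 35S:RPS4. LOX3 was at 81.4, 575 and 433 CPM in Col-0 and at 154, 61.9 and 58.6 CPM in 35S:RPS4. In both genes Col-0 replicate 1 lay inside the 35S:RPS4 range. JAR1, which makes the isoleucine conjugate, was at 56.9, 356 and 125 CPM in Col-0 and at 71.2, 51.8 and 40.7 CPM in 35S:RPS4.

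The JAZ repressors JAZ7 and JAZ10 were likewise higher in Col-0 replicates 2 and 3 than in the other libraries. Replicate 3 was the highest for JAZ7 and replicate 2 for JAZ10. JAZ7 was at 1.22, 17.0 and 31.7 CPM in Col-0 and at 0.476, 0.536 and 0.883 CPM in 35S:RPS4. JAZ7 was the clearest case, since here the lines did not overlap (log2FC -4.71 ± 0.90, SE, n = 3, edgeR adjusted p = 0.111, DESeq2 0.000403). JAZ10 was at 2.15, 80.1 and 53.0 CPM in Col-0 and at 4.35, 1.77 and 2.54 CPM in 35S:RPS4, with Col-0 replicate 1 inside the 35S:RPS4 range. CYP94C1, which oxidises the active hormone, was at 1.63, 39.7 and 32.0 CPM against 2.32, 0.659 and 2.91 CPM. Not every jasmonate gene did so. VSP2, a storage protein induced late, was at 144, 550.0 and 391 CPM in Col-0 and at 254, 97.4 and 798 CPM in 35S:RPS4, where replicate 3 was the highest of the 6. COI1, the jasmonate receptor, was at 43.8 to 49.3 against 47.7 to 55.4 CPM.

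Over the 29 jasmonate genes tested the median log2FC was -2.06, against 0.00 over all genes. edgeR called 0 of them and 21 had an unadjusted p under 0.05, all lower, against 1198 lower of 20023 genes tested. DESeq2 called 5 lower (JAZ2, JAZ7, JAZ10, JAR1 and CYP94C1), against 0.355% of all genes tested. In 22 of the 29 genes (75.9%) Col-0 replicates 2 and 3 were both above the 4 other libraries, against 10.4% of all genes tested. The mean log2 CPM of the list was 3.82, 6.76 and 6.26 in the Col-0 libraries and 4.60, 3.34 and 4.31 in the 35S:RPS4 libraries. Without Col-0 replicate 1 the median log2FC was -2.57 and edgeR called 12 lower, whereas the median was 0.44 when Col-0 was replicate 1 alone. The direction for this list thus changed with the Col-0 library used. Labels gave no harvest time, tray or batch for these libraries, and whether such a difference moved with the jasmonate genes was not tested.

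Cold-response genes were also, by the mean of the list, highest in Col-0 replicate 2 and next highest in replicate 3, although neither line had been shifted. These genes protect cells against freezing and dehydration and are switched on by the CBF factors, which bind the CRT/DRE element with the core CCGAC. COR15A was at 138, 666 and 345 CPM in Col-0 and at 98.4, 110.2 and 114 CPM in 35S:RPS4. RD29A was at 180, 874 and 510 CPM in Col-0 and at 175, 151 and 143 CPM in 35S:RPS4. For both genes the lines did not overlap, but Col-0 replicate 1 was close to the 35S:RPS4 libraries. The 35S:RPS4 libraries themselves varied little, with an SD of log2 CPM of 0.113 for COR15A against 1.14 in Col-0. Their log2FC were -1.83 (edgeR adjusted p = 0.1253, DESeq2 0.000361) and -1.74 (edgeR 0.180, DESeq2 0.00874). The CBF genes themselves were low in both lines, with CBF2 at 0.1101 to 0.698 against 0.635 to 0.907 CPM and CBF3 at 0.440 to 0.632 against 0.288 to 1.55 CPM.

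Upstream sequences of 1 jasmonate and 2 cold genes are shown for the elements named above (RefSeq annotation, TAIR10.1). The windows were chr2:14572780-14573029 on the plus strand for JAZ7, chr2:17712331-17712580 on the minus strand for COR15A and chr5:21240467-21240716 on the plus strand for RD29A. Capitals mark the CRT/DRE core CCGAC, the G-box CACGTG and the W-box core TTGAC or their reverse complements.
JAZ7: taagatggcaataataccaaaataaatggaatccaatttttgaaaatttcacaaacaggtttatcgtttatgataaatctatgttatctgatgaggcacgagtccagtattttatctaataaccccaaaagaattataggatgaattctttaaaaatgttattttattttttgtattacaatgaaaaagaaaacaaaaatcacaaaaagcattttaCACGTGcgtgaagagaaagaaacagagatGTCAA
COR15A: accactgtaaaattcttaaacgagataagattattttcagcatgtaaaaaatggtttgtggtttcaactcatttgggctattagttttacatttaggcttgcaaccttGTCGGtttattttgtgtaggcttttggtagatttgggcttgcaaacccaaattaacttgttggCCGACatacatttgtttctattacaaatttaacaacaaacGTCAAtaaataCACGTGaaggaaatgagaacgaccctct
RD29A: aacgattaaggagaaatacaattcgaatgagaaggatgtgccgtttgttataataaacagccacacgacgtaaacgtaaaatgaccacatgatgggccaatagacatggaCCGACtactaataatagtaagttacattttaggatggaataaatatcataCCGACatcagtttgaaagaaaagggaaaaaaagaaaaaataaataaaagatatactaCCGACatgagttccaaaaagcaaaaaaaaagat
In RD29A the CCGAC core began 140, 90 and 33 bases upstream of the annotated start. COR15A held it 142 bases upstream on the opposite strand and 79 bases upstream on its own, with a G-box 28 bases upstream. JAZ7 held a G-box 34 bases upstream. A match in these windows is a description of the sequence and no site of binding.

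Of the 19 cold-response genes tested, edgeR called 0 and DESeq2 called 6 lower (COR15A, RD29A, ERD10, KIN1, KIN2 and GolS3), against 0.355% of all genes tested. An unadjusted p under 0.05 was reached by 13, of which 12 were lower, against 1198 lower of 20023 genes tested. The median log2FC was -1.17, with a range of -3.13 to 1.29. The lines did not overlap in 2 genes that were higher in 35S:RPS4 and 6 that were lower, against 6.84% and 4.38% of all genes tested. Replicates 2 and 3 of Col-0 were both above the other 4 libraries in 13 genes (68.4%), against 10.4% of all genes tested. KIN2, a small protein of this group, was at 153, 792 and 458 CPM in Col-0 and at 171, 139 and 165 CPM in 35S:RPS4. GolS3, which makes the precursor of raffinose sugars, was at 2.22, 17.38 and 2.39 CPM in Col-0 and at 0.698, 0.948 and 0.994 CPM in 35S:RPS4, where the lines did not overlap. The summed CPM of the list ranged from 930 to 4533 in Col-0 and from 803 to 850.3 in 35S:RPS4. Without Col-0 replicate 1 the median was -1.57 and edgeR called 7, the same 6 and COR15B. When Col-0 was replicate 1 alone, the median was -0.06.

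**Figure D4:**
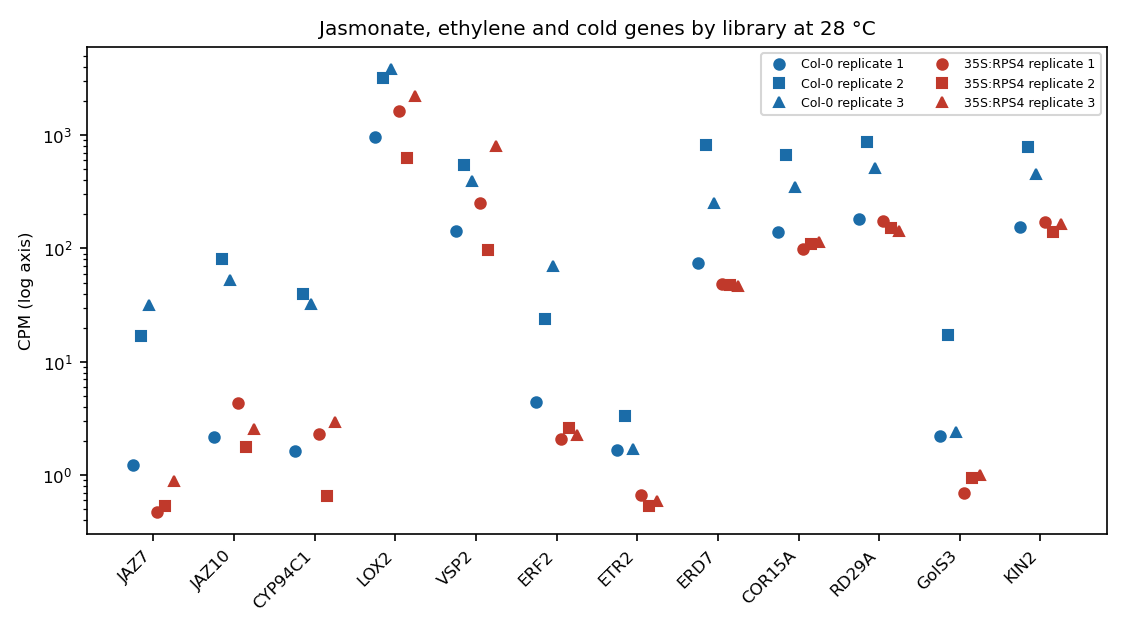
CPM (log axis) of jasmonate, ethylene and cold genes in each library at 28 °C (blue, Col-0, red, 35S:RPS4, the symbol shape gives the replicate). In JAZ10, for example, Col-0 replicates 2 and 3 lie at 80.1 and 53.0 CPM while Col-0 replicate 1 (2.15 CPM) lies among the 35S:RPS4 libraries (1.77 to 4.35 CPM), and in VSP2 the lines overlap.

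Ethylene genes were split between steady and varying members. Ethylene is perceived by receptors such as ETR1 and ETR2 and acts through EIN2 and EIN3 on genes of the ERF family. EIN2 and EIN3 had log2FC of 0.08 and -0.07, and ETR1 was at 26.1 to 29.5 against 23.9 to 29.3 CPM. ETR2 was at 1.67, 3.29 and 1.69 CPM in Col-0 and at 0.667, 0.536 and 0.589 CPM in 35S:RPS4. In this gene all 3 Col-0 libraries, replicate 1 included, were above all 35S:RPS4 libraries (log2FC -1.88, edgeR adjusted p = 0.111, DESeq2 0.000403). ERF2 was at 4.41, 23.9 and 70.0 CPM in Col-0 and at 2.09, 2.60 and 2.25 CPM in 35S:RPS4 (log2FC -3.83, edgeR adjusted p = 0.111, DESeq2 7.51e-05). Here the lines did not overlap, and Col-0 replicate 3 rather than 2 was the highest. Of 22 genes tested edgeR called 0, 6 had an unadjusted p under 0.05, all lower, and DESeq2 called 2 lower, ETR2 and ERF2. Without Col-0 replicate 1 edgeR called 4 lower (ETR2, ERF2, ERF1A and EBF1), and the median log2FC, -0.58 with all libraries, was -0.73 without replicate 1 and -0.06 with it alone.

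The 71 genes that DESeq2 called lower are described here by the level of each Col-0 library. In 61 of the 71, Col-0 replicate 1 was nearer to the mean of 35S:RPS4 than to that of the other Col-0 libraries, that is 85.9% against 59% of all genes tested. It lay inside the 35S:RPS4 range in 30 (42.3%), against 52.2% of all genes. The highest of the 6 libraries was Col-0 replicate 2 in 44, replicate 3 in 26 and replicate 1 in 1, whereas over all genes with a negative log2FC these libraries were the highest in 41.1%, 19.3% and 22.6%. The spread was wider in Col-0 than in 35S:RPS4 for 69 of the 71, against 55.5% of all genes. The lines did not overlap in 37 (52.1%), against 4.38% of all genes. The 71 were picked from these same libraries as lower. That choice by itself favours a Col-0 library as the highest, a wider Col-0 spread and lines that do not overlap. The shares above, that of nearness included, therefore describe the 71 and are no test. When Col-0 replicate 1 was left out, edgeR called 4 genes higher (0.0197%) and 178 lower (0.877%) of 20300 tested. DESeq2's 71 and these 178 shared 60 genes, 84.5% of the former and 33.7% of the latter. Leaving out Col-0 replicate 2 or 3 left 2 genes higher and 0 lower.

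Among the DESeq2 calls with a symbol and a mean of at least 5 CPM in Col-0, the largest falls were those of JRG21, JAZ7, TRFL4, JAZ10, ERF2, CYP94C1, CRF3, Fes1B, KIN1 and GolS3. JRG21, an oxygenase gene regulated by jasmonate, was at 0.313, 18.1 and 4.59 CPM in Col-0 and at 0.444, 0.124 and 0.258 CPM in 35S:RPS4. CRF3, a cytokinin response factor, was at 1.22, 6.42 and 8.74 CPM against 0.635, 0.371 and 0.552 CPM. In CRF3 all Col-0 libraries were above all 35S:RPS4 libraries, whereas Col-0 replicate 1 fell among the 35S:RPS4 libraries for JRG21. ERD7, a gene of dehydration and senescence, was at 74.4, 822 and 253 CPM in Col-0 and at 48.4, 47.1 and 46.3 CPM in 35S:RPS4, with no overlap (log2FC -3.02, edgeR adjusted p = 0.111, DESeq2 6.92e-05). The only gene besides RPS4 with a symbol that DESeq2 called higher was TAA1, an enzyme of auxin synthesis, at 3.06, 2.36 and 4.55 CPM in Col-0 and at 9.11, 9.02 and 6.81 CPM in 35S:RPS4. Its libraries did not overlap (log2FC 1.32, edgeR adjusted p = 0.177, DESeq2 0.00901).

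By edgeR, 16.6% of all tested genes were called higher in 35S:RPS4 at 4 h and 12.4% lower. Of the 71 genes that DESeq2 called lower at 28 °C, 40 were called higher at 4 h and 3 lower. Most of the 71 thus differed in direction between the time points. JAZ10, for instance, was at 28.6, 33.2 and 33.6 CPM in 35S:RPS4 and 0.259 to 1.74 CPM in Col-0 at 4 h. The upstream windows of the 71 genes held CCGAC in 15.5%, CACGTG in 16.9%, TTGAC in 45.1%, CGCG in 8.45% and CGTG, which the G-box contains, in 63.4%. Over all tested genes these shares were 13.1%, 7.37%, 44.9%, 11% and 46.1%. Among the genes higher at 4 h, TTGAC was in 57.5%, CGCG in 14.5% and CGTG in 50.9%. In the jasmonate list CCGAC was in 3.45%, CACGTG in 13.8%, TTGAC in 55.2%, CGCG in 17.2% and CGTG in 79.3%. In the cold list these shares were 36.8%, 21.1%, 31.6%, 10.5% and 73.7%.

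**Figure D5:**
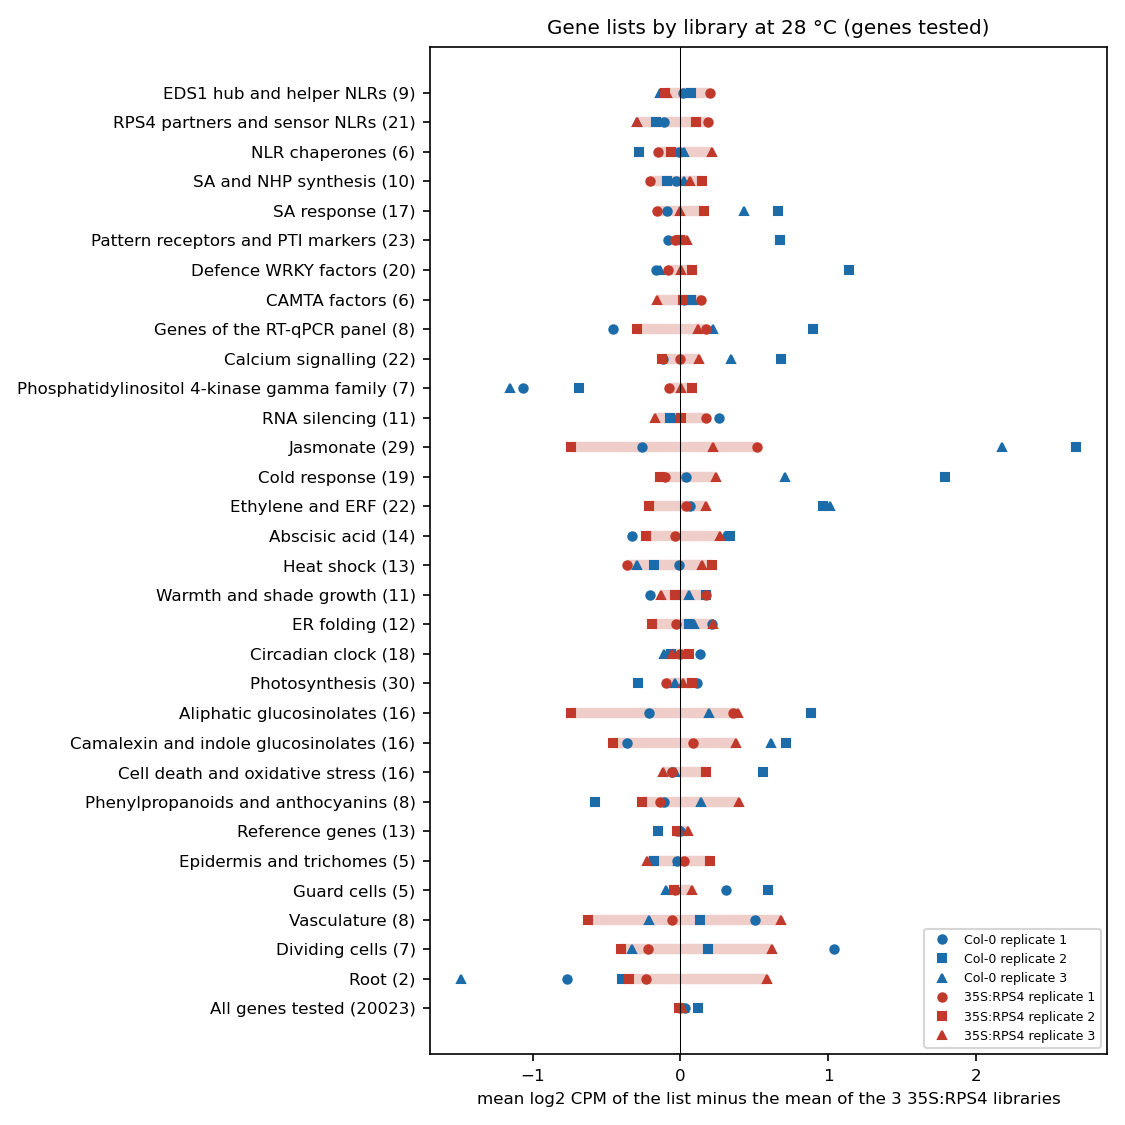
Mean log2 CPM of each gene list in each library at 28 °C, minus the mean of the 3 35S:RPS4 libraries (x axis, pink bars mark the range of 35S:RPS4, numbers in brackets are genes tested). Col-0 replicates 2 and 3 lie far to the right for jasmonate and cold genes while Col-0 replicate 1 lies in or near the bar, and the displacement of the phosphatidylinositol 4-kinase list comes from AT5G24240.

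Transcripts of genes for defence metabolites varied between libraries in both lines. Indole glucosinolates and camalexin are made from tryptophan, and CYP79B2 and CYP79B3 catalyse the entry step. CYP79B3 was at 32.7, 189 and 166 CPM in Col-0 and at 61.4, 16.6 and 126 CPM in 35S:RPS4, where the lines overlapped. SOT16, a late enzyme of this route, was at 54.1, 172 and 169.8 CPM against 70.2, 43.5 and 84.4 CPM. Of 16 genes of this list edgeR and DESeq2 called 0 and 5 had an unadjusted p under 0.05, 2 of them higher. In 9 of the 16 genes (56.2%) Col-0 replicates 2 and 3 were both above the 4 other libraries, against 10.4% of all genes tested. The median log2FC was -0.55, changed to -0.78 with 1 edgeR call without Col-0 replicate 1, and turned to 0.47 with that library alone. Of 16 genes for aliphatic glucosinolates, which derive from methionine, edgeR and DESeq2 likewise called 0, and 1 had an unadjusted p under 0.05, with a median log2FC of -0.25 that turned to 0.28 with Col-0 replicate 1 alone. MAM1, which elongates methionine, was at 224, 376 and 286 CPM in Col-0 and at 423, 123 and 497 CPM in 35S:RPS4, so that here 35S:RPS4 replicate 2 was the lowest library. Among 16 genes of cell death and oxidative stress the same tests called 0, and ACD6, a membrane protein that promotes cell death, had the smallest p with 145, 227 and 98.6 CPM in Col-0 and 59.5, 58.8 and 50.9 CPM in 35S:RPS4. ACD6 was higher in every Col-0 library (log2FC -1.47, 95% interval -2.31 to -0.64, edgeR adjusted p = 0.201, DESeq2 0.0182).

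Genes of temperature, light and time of day were not called by edgeR. Of 18 clock genes 15 had an interval within 2-fold and 0 an unadjusted p under 0.05, with CCA1, a morning gene, at 319 to 430.0 CPM in Col-0 and 350 to 492 CPM in 35S:RPS4. Among 13 heat-shock genes, the median log2FC was 0.15, edgeR and DESeq2 called 0 and 1 had an unadjusted p under 0.05. HSP70 was at 1483 to 2453 CPM in Col-0 and at 1997 to 2872 CPM in 35S:RPS4. PIF7, which promotes growth in warmth and shade, was at 64.2 to 66.0 against 57.1 to 83.6 CPM, and PIF4, which does so in warmth, had a log2FC of -0.32. Of the 11 genes of warmth and auxin tested, 2 had an unadjusted p under 0.05 and only TAA1 was called by DESeq2. In photosynthesis 29 of 30 genes had an interval within 2-fold, and the most abundant of the genes listed, RCA, which activates Rubisco, was at 11045 to 17180 CPM in Col-0 and at 18086 to 21007 CPM in 35S:RPS4. RCA was higher in each 35S:RPS4 library without passing the test (log2FC 0.37, edgeR adjusted p = 0.485). Endoplasmic reticulum folding genes had a median log2FC of -0.21, with 10 of 12 intervals within 2-fold, 2 genes at an unadjusted p under 0.05 and 0 calls by edgeR or DESeq2. The same tests called 0 of 14 abscisic acid genes (median log2FC 0.08, 3 at an unadjusted p under 0.05) and 0 of 8 phenylpropanoid genes (median 0.20, 0 at an unadjusted p under 0.05).

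Markers of cell types and tissues were checked beside these lists, and edgeR and DESeq2 called 0 of them. All 5 epidermis and trichome genes tested had intervals within 2-fold. In addition, 2 guard cell, 1 dividing-cell and 1 root gene had an unadjusted p under 0.05. The summed CPM of the epidermis and trichome genes was 284 to 402 in Col-0 and 363 to 471 in 35S:RPS4. The summed guard cell markers were at 39.9 to 52.9 against 37.5 to 40.2 CPM and vascular markers at 351 to 553 against 302 to 527 CPM. Dividing-cell markers were low, at 9.58 to 25.04 against 11.6 to 20.1 CPM, with Col-0 replicate 1 the highest library. Of the root genes, PYK10, a root and endoplasmic reticulum body glucosidase, was at 15.3, 25.7 and 7.78 CPM in Col-0 and at 44.1, 31.8 and 74.2 CPM in 35S:RPS4. PYK10 was higher in every 35S:RPS4 library, and its log2FC of 1.62 did not pass the test (edgeR adjusted p = 0.471). The root markers RHD6 and PHT1;1, the seed markers and 5 of 6 flower and meristem markers had too few counts to be tested. All 13 reference genes had intervals within 2-fold, with a median log2FC of 0.10 and 0 at an unadjusted p under 0.05.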

How the data were processed

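Polyadenylated RNA of leaves was sequenced in paired-end mode after depletion of ribosomal RNA and oligo-dT priming. Per the labels, the authors ran FastQC 0.11.2 on the reads, used TopHat2 2.0.10 for alignment to the TAIR10 genome and deposited raw counts per gene made with HTSeq, whose version and strand setting are not given in the sources used here. Reads of overlapping genes on opposite strands may therefore not be told apart (96 of 437 listed genes have such an overlap), and reads of near-identical copies are uncertain. In each 28 °C library, HTSeq assigned 48.5% to 48.9% of reads to no feature. With the strand setting not given, these reads need not have lain outside genes. The 5 summary lines stayed out of all sums and tests.

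A model with 1 mean for each of the 6 groups was fitted to all 18 libraries with edgeR 4.0.16 (quasi-likelihood, TMM factors of 0.948 to 1.15 at 28 °C, filterByExpr, which kept 20023 genes and removed 12655) in R 4.3.3. Genes were called at an adjusted p under 0.01 and an absolute log2FC above 1. SEs and 95% intervals come from the same fit and were not computed for genes with 0 counts in all 3 libraries of a line. DESeq2 1.42.0 and limma 3.58.1 (voom), other scalings and filters, the 28 °C libraries alone, a replicate block and leaving out each library were alternatives. Each test was tested on simulated data. Python 3.11.15 and matplotlib 3.10.9 served for figures. Promoter windows of 250 bases were read from TAIR10.1 by RefSeq annotation, which held 31912 of 32678 genes. Replicate numbers were not taken to pair the libraries. Deviations of same-numbered libraries correlated at -0.12, -0.00379 and -0.127, which cannot tell whether they shared a harvest or batch. No 2 libraries of a line were copies.

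The comparison and its 33 gene lists were chosen with earlier results of these data known. The naming rule took RPS4, called genes, 5 neighbours on each side, the called members of each list or else its 2 most abundant genes and that of smallest p, the 10 largest falls and 5 largest rises of DESeq2 and of each fit without 1 library (with a symbol and at least 5 CPM in the higher line), and the 10 genes of widest spread per line. Genes outside the rule, such as EDS1, SARD1, CAMTA3, SNC1, PR1, WRKY33, LOX3, JAR1, JAZ2, COI1, CBF2, CBF3, KIN2, ERD7, EIN2, EIN3, AT4G04223 and AT5G42645, were named after their values were seen.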

Additional observations from a re-analysis of the deposited data

Results flagged for a closer look

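The effect of the line on RPS4 itself differed between time points. RPS4 was 71.3-fold higher in 35S:RPS4 than in Col-0 at 28 °C (log2FC 6.16) and had a log2FC of 7.22 at 4 h after the shift. The difference between the effects at 4 h and 28 °C was 1.07 on the log2 scale (± 0.21, SE, n = 3 per group, edgeR adjusted p = 7.3e-04), and all 3 libraries of 35S:RPS4 at 4 h (1893 to 2604 CPM) were above all 3 at 28 °C (772 to 995 CPM). The difference between 8 h and 28 °C had the other sign (-0.73 ± 0.21, edgeR adjusted p = 0.00634), at less than a 2-fold difference. TMM factors of the 35S:RPS4 libraries were 0.948 to 1.02 at 28 °C and 0.797 to 0.838 at 4 h, and their part in the difference was not tested.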

How the results depend on the processing

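RPS4 stayed called higher under every alternative run, and 0 results changed sign among those called. The 2 genes higher and 0 lower were the same in number with scaling by median of ratios or by totals and with either other filter. The same held with the 28 °C libraries alone and with the replicate block. Under that block RPS4 was at 6.16 and AT5G24240 at 6.80 (log2FC), though the labels do not say that the numbers pair the libraries. DESeq2 gave 4 higher and 71 lower. limma voom gave 1 higher, with AT5G24240 at 6.76 and an adjusted p of 0.0556. Leaving out 1 library gave 2 to 4 genes higher and 0 to 178 lower, the 178 without Col-0 replicate 1 and 1, RABA1c, without 35S:RPS4 replicate 3, with RPS4 at 6.09 to 6.26 and AT5G24240 at 6.63 to 7.17. Of 2 alternatives chosen after seeing the data, Col-0 replicate 1 standing alone for Col-0 at 28 °C gave 1 higher, with AT5G24240 at 7.21 and an adjusted p of 0.0139, the lone library being assumed to vary like the other groups, and DESeq2 without Col-0 replicate 1 gave 15 higher and 338 lower. For 160 named genes that were not called, 2708 gene and setting pairs held 96 calls, 24 by DESeq2, 32 by edgeR without Col-0 replicate 1, 1 without 35S:RPS4 replicate 3 and 39 by DESeq2 without Col-0 replicate 1, and 181 uncalled pairs with a change of sign. With 3 libraries per line, a 2-fold difference was not excluded for genes whose 95% interval ran wider.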

Other observations

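A non-coding RNA locus, AT4G04223 (chr4:2036511-2037816), was at 0.174, 1.23 and 0.440 CPM in Col-0 and at 5.30, 6.22 and 5.04 CPM in 35S:RPS4 at 28 °C. Every 35S:RPS4 library was above every Col-0 library, and the same held after the shift, with 4.75, 5.04 and 6.34 CPM against 0.130 to 0.724 CPM at 4 h and 3.72 to 4.75 CPM against 0.164 to 0.976 CPM at 8 h. At 28 °C its log2FC was 3.15 ± 0.59 (SE, n = 3), called by DESeq2 (adjusted p = 7.51e-05) and not by edgeR (adjusted p = 0.111). Unlike RPS4 and AT5G24240, it had much the same level in 35S:RPS4 at the 3 time points.

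The pseudogene AT5G42645 (chr5:17090938-17095801), which lies next to the jasmonate gene AOS, had 106, 61 and 70 counts in Col-0 and 0, 1 and 0 counts in 35S:RPS4 at 28 °C (log2FC -7.38 ± 1.85, SE, n = 3, edgeR adjusted p = 0.158). After the shift Col-0 libraries split, with 0, 141 and 48 counts at 4 h and 51, 0 and 24 counts at 8 h, while 35S:RPS4 libraries held 0 or 1 count each. Its level thus ranged from absent to present within Col-0, and no library of 35S:RPS4 had more than 1 count.

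Over all 3 time points, 61 genes were higher in each of the 9 35S:RPS4 libraries than in each of the 9 Col-0 libraries. A further 42 were lower, with 20023 genes tested. Of these 61 and 42, 12 had a fitted difference of more than 2-fold at 28 °C. Beside RPS4, AT5G24240 and AT4G04223 they included EXLA2, an expansin-like wall protein, at 4.17, 10.005 and 1.80 CPM in Col-0 and at 0.889, 1.44 and 1.55 CPM in 35S:RPS4 at 28 °C. E13L3, a glucanase-like gene, was at 1.28, 2.83 and 1.25 CPM against 0.254, 0.206 and 0.368 CPM, and LECRKA4.2, a lectin receptor kinase, at 0.868, 0.598 and 0.954 CPM against 1.71, 1.90 and 1.25 CPM. edgeR called none of these 3 at 28 °C (adjusted p of 0.162, 0.1253 and 0.390), whereas DESeq2 called EXLA2 and E13L3.

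The genes that varied most among the 35S:RPS4 libraries were other than those that varied most in Col-0, by the 10 of each line with at least 20 CPM. In Col-0 they were mainly jasmonate genes, led by JAZ10 (SD of log2 CPM 2.83 against 0.635 in 35S:RPS4) and CYP94B1 (2.78 against 0.935). In 35S:RPS4 they were led by AT4G17470, at 118, 14.3 and 245 CPM, and AT1G14250, at 47.9, 7.91 and 138 CPM, and also held VSP1 and VSP2. In AT4G17470, AT1G14250, JAL23, VSP1 and VSP2 the lowest library was 35S:RPS4 replicate 2 and the highest 35S:RPS4 replicate 3.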
